A study of Homo sapiens with 4 samples.

Results

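The 9 genes described here encode the enzymes that make serine from a glycolytic intermediate and the folate enzymes that turn serine into one-carbon units. They are PHGDH, PSAT1 and PSPH for serine synthesis, SHMT2, MTHFD2, MTHFD1L and ALDH1L2 for the mitochondrial folate pathway, and SHMT1 and MTHFD1 for its cytosolic counterpart. Members were taken by gene symbol from the annotation of the array. Every probe set annotated to exactly 1 of these symbols was kept, which gave 33 probe sets for the 9 genes, out of 49293 probe sets and 18132 genes with a single-gene probe set. A probe set is a group of short probes that together report 1 transcript or a few alike ones. A further probe set annotated to both PHGDH and MZT2B was left out. The family was proposed with results of these 4 arrays known, PSAT1 among them, so the differences between the groups are given here as a description and not as evidence for a change.

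RNA came from U87MG, an established human glioma cell line grown in 6 well plates. The control group had received the vector PCDNA and the other group PC-490, a vector that overexpresses the microRNA miR-490. Both groups were harvested 48 h after transfection and each was measured on 2 PrimeView 3' expression arrays from 100 ng of total RNA. Both groups therefore received a plasmid, and a response to transfection that they share cannot be seen. The fraction of cells that took up the plasmid is not known here. The level of miR-490 itself was not analysed here. The labels do not say whether the replicates were separate cultures, so errors and p-values measure the spread between these arrays, which may be technical.

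Serine is made in the cytosol in 3 steps. PHGDH oxidises 3-phosphoglycerate, PSAT1 moves an amino group from glutamate onto the product, and PSPH removes the phosphate. The serine hydroxymethyltransferases SHMT1, in the cytosol, and SHMT2, in mitochondria, then split serine into glycine and a one-carbon unit carried by folate. In mitochondria MTHFD2 oxidises that unit and MTHFD1L releases it as formate, while ALDH1L2 oxidises 10-formyl-folate to carbon dioxide. In the cytosol the enzyme MTHFD1 takes formate back into folate for purine and thymidylate synthesis. Tumour cells use the pathway for nucleotides, glycine and redox balance, and the transcription factor ATF4 is known to induce most of the serine and mitochondrial genes when amino acids run short.

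Both mature forms of the microRNA are shown because they define the treatment, with the seed (bases 2 to 8) in capitals. The sequences are from RefSeq (GRCh38.p14, plus strand), with miR-490-5p at chr7:136903205-136903224 and miR-490-3p at chr7:136903242-136903263.
hsa-miR-490-3p: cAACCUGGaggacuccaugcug
hsa-miR-490-5p: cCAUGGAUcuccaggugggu
The 5p and 3p arms have different seeds. No target sites in the members were searched, because their transcript sequences were not used here.

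Promoter sequences are shown because members whose values move together can share promoter elements. RefSeq windows from 250 bases before to 50 bases after a gene start were at hand for 6 of the 9 members (9 windows, 4 of them of MTHFD1L), and those of PSPH, SHMT2 and ALDH1L2 were not analysed here. Both strands were searched for TGATGNAA, the core of the element that ATF4 binds together with C/EBP proteins, and for CACGTG, the E-box bound by MYC and related factors. TGATGNAA was present in 1 of the 6 genes, MTHFD1L, in 3 of its 4 windows, which overlap and hold the same site, at chr6:150866357-150866364. Of all 35116 windows of this length, 3.62% held it. CACGTG was present in MTHFD1L (chr6:150866332-150866337) and MTHFD1 (chr14:64388338-64388343), and in 7.26% of all windows. Both shares are of windows and the member counts are of genes, so they are not like measures. A gene with several windows, such as MTHFD1L, has more chances of a match. The stretches below are on the plus strand of GRCh38.p14, with matches to either motif in capitals.
MTHFD1L: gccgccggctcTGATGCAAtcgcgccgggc
MTHFD1: ccagtccctaagCACGTGggttgggtt
PSAT1: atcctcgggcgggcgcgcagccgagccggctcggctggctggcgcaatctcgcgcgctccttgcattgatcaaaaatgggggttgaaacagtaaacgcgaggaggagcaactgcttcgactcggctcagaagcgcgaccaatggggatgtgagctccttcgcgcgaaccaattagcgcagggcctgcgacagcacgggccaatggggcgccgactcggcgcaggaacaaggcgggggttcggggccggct
The MTHFD1L stretch is chr6:150866346-150866375, that of MTHFD1 is chr14:64388326-64388352 and that of PSAT1, the 250 bases before its start, is chr9:78296875-78297124. The PSAT1 stretch has no capitals, which says only that neither set of letters lies in that window.

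The deposited values are log2 expression after RMA, a procedure that makes the arrays alike in distribution. Array medians lay between 5.15 and 5.17, and across all probe sets Pearson's r was 0.9975 between the controls, 0.9979 between the miR-490 arrays and 0.9976 to 0.9979 for arrays of different groups. Of 8 markers fixed for the glioma line 6 lay above the median level. VIM, a mesenchymal filament, was at 13.90 to 13.92 and CD44, a receptor for hyaluronan, at 11.82 to 12.14 (log2). GFAP, the astrocyte filament, was near the array median at 5.56 to 5.81. The 2 markers below the median level of 5.16 were NES and SOX2, with means over the 4 arrays of 4.15 and 4.87. PTPRC, which marks leukocytes, was at 2.43 to 2.62. Over the whole marker lists, 1 of 5 leukocyte, 0 of 5 epithelial, 2 of 5 endothelial and 2 of 6 neuronal genes lay above the median level of all probe sets. The leukocyte gene above it was CD68, which many cultured cells express, and the median log2 difference between groups over the 5 leukocyte genes was -0.135, at levels near the floor for the others. The 6 neuronal genes had a median of -0.063, with 5 of them lower. Among these SNAP25, a synaptic protein, was at 8.65 and 8.67 in controls and 8.47 and 8.54 with miR-490. Its other 3 probe sets ran from -0.075 to 0.245, 1 lower and 2 higher. The medians of the epithelial and endothelial genes were -0.005 and -0.015. Their part in the values of the members was not tested.

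Most of the family was lower in the miR-490 arrays, by small amounts. The mean was lower in 31 of 33 probe sets, against 47.8% of all probe sets on the arrays, with a median log2 difference (miR-490 minus control) of -0.13, a level of 0.914 of the control, where the median of all probe sets was 0.00. In 22 of the 33 both miR-490 arrays lay below both control arrays, and in 1 both lay above; over all probe sets the shares were 15.6% in each direction. Because probe sets of a gene read the same RNA, these are not 33 independent values, and PSAT1 and MTHFD2 alone supply 13 of them. Without these 2 genes, 18 of 20 probe sets were lower, with a median of -0.078. In RNA from whole cultures, less RNA per cell and fewer cells that express a gene cannot be told apart.

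No difference passed a test. With limma over all 49293 probe sets and Benjamini-Hochberg adjustment, 0 had an adjusted p under 0.05 (0% of the arrays' probe sets), and the members' adjusted p ran from 0.900 to 0.996. At an unadjusted p under 0.05 limma gave 2537 probe sets, 5.15% of all, where chance gives 2465, and 10 of the 33 members, 6 of them of PSAT1, 3 of MTHFD2 and 1 of ALDH1L2. With 2 arrays a group, the smallest two-sided exact permutation p for any 1 value is 0.333. The plot of every probe set by array shows how the genes differ within the family.

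**Figure D1:**
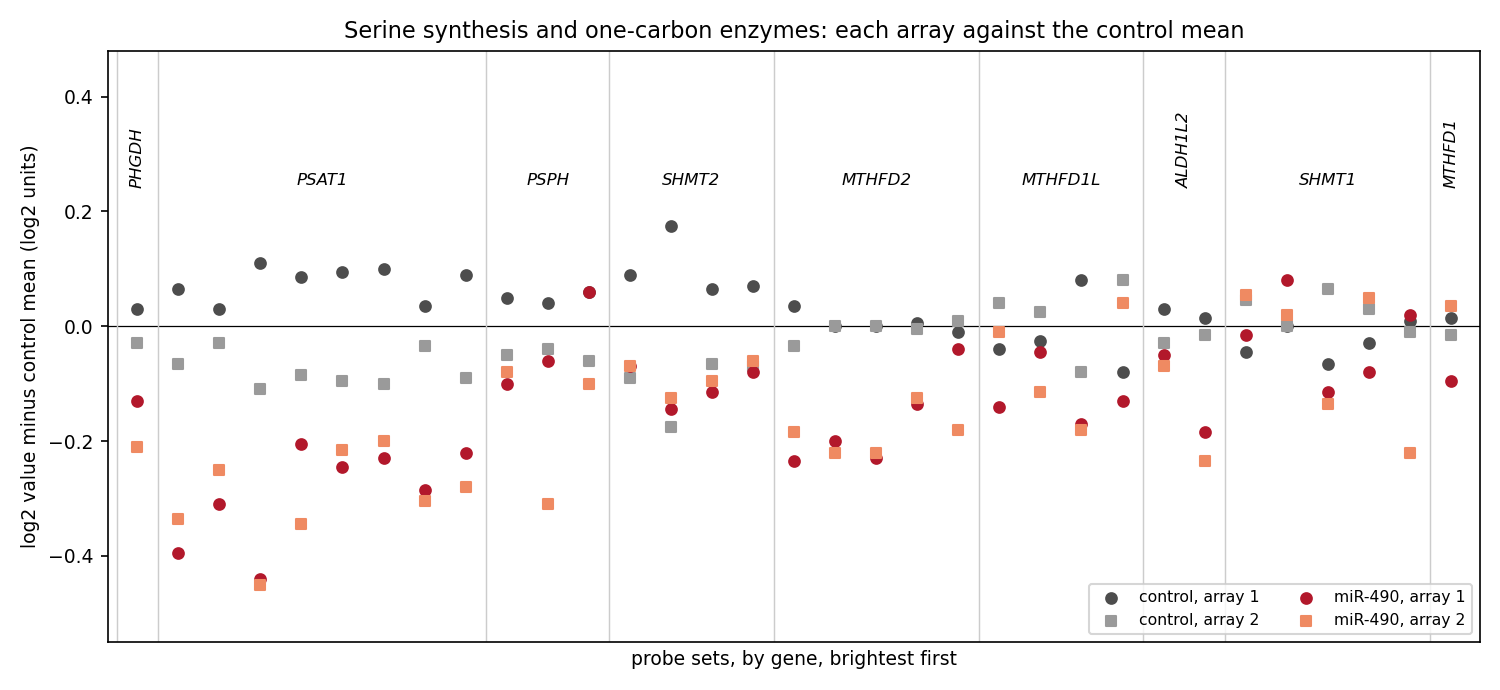
Each array's log2 value minus the mean of the 2 control arrays (vertical axis, log2 units) for the 33 probe sets, grouped by gene and ordered from brightest to dimmest within a gene. Grey points are control arrays and red or orange points miR-490 arrays; the miR-490 points of PSAT1 and MTHFD2 all lie below the control points, while those of SHMT1 lie on both sides.

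Among the serine synthesis enzymes PSAT1 had the widest differences. The miR-490 mean was the lower one in all 12 of their probe sets, and in 11 the groups did not overlap. The median log2 difference was -0.24, a value that PSAT1 carries with 8 of the 12 sets: over the 4 sets of PHGDH and PSPH it was -0.13.

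PSAT1, the transaminase of the middle step, was lower in each of its 8 probe sets. Its brightest set (11756182_s_at) was at 10.22 and 10.09 in the control arrays and at 9.76 and 9.82 in the miR-490 arrays (log2). Both miR-490 arrays were below both controls. The means were 10.155 ± 0.092 and 9.79 ± 0.042 (SD, n = 2), a log2 difference of -0.365 with a standard error of 0.079, or 0.776 of the control level. Among the 24637 probe sets above the median level, 53 had a difference as low or lower (0.215%). These 53 include this set and another PSAT1 set. Since PSAT1 was known beforehand, its rank is a description and not evidence for a change.

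The other PSAT1 probe sets gave the same direction and differed in size. The set with the widest difference (11742992_s_at) was at 9.54 and 9.32 in controls and 8.99 and 8.98 with miR-490, a log2 difference of -0.445 ± 0.096 (standard error). The set with the narrowest (11747348_a_at) was at 9.36 and 9.16 against 9.03 and 9.06, a difference of -0.215 ± 0.091. The dimmest (11751230_a_at) was at 7.84 and 7.66 against 7.53 and 7.47, a difference of -0.25. In all 8 the groups did not overlap and the difference exceeded the gap between arrays within either group. RefSeq lists 4 PSAT1 pseudogenes, PSAT1P1 to PSAT1P4, whose transcripts some of these probes may also read. By the maker's naming, sets ending in _s_at or _x_at can match transcripts of more than 1 gene, and 4 of the 8 are of that kind. Those 4, the brightest set among them, had the widest differences, from -0.445 to -0.28. The sets ending in _a_at ran from -0.275 to -0.215.

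PHGDH, which commits 3-phosphoglycerate to the pathway, had 1 probe set. It was at 9.86 and 9.80 in controls and 9.70 and 9.62 with miR-490 (log2), without overlap. The log2 difference was -0.17 ± 0.071 (standard error), or 0.889 of the control level, and it exceeded the gaps of 0.06 and 0.08 within the groups. The set shared with MZT2B, which was kept out, stood at 11.07 and 11.16 in controls and at 11.14 in both miR-490 arrays, so it did not show the lower level.

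PSPH, the phosphatase of the last step, showed less. Its brightest set was at 8.73 and 8.63 in controls and 8.58 and 8.60 with miR-490, a log2 difference of -0.09 ± 0.072 (standard error). A second set was at 6.27 and 6.19 against 6.17 and 5.92, a difference of -0.185 ± 0.11, which was smaller than the gap of 0.25 between the miR-490 arrays. The third, at 2.19 to 2.35 over the 4 arrays, was near the floor of the arrays and its groups overlapped. The brightest set had -0.04 without control array 1 and -0.14 without control array 2. No PSPH set had a difference wider than the gaps within both groups. The gene has a pseudogene copy, PSPHP1, and all 3 sets are of the _s_at or _x_at kind, so the source of the signal is uncertain.

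One control array contributed to the size of these values. In all 12 serine synthesis probe sets control array 1 was above control array 2, as it was in 44.8% of all probe sets. Without control array 1, 11 of the 12 sets were lower, with a median of -0.153, and without control array 2 all 12 were, with a median of -0.32. The 8 PSAT1 sets were lower in each of the 4 cases in which 1 array was left out, with medians from -0.335 to -0.22, and its brightest set ranged from -0.43 to -0.30.

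**Figure D2:**
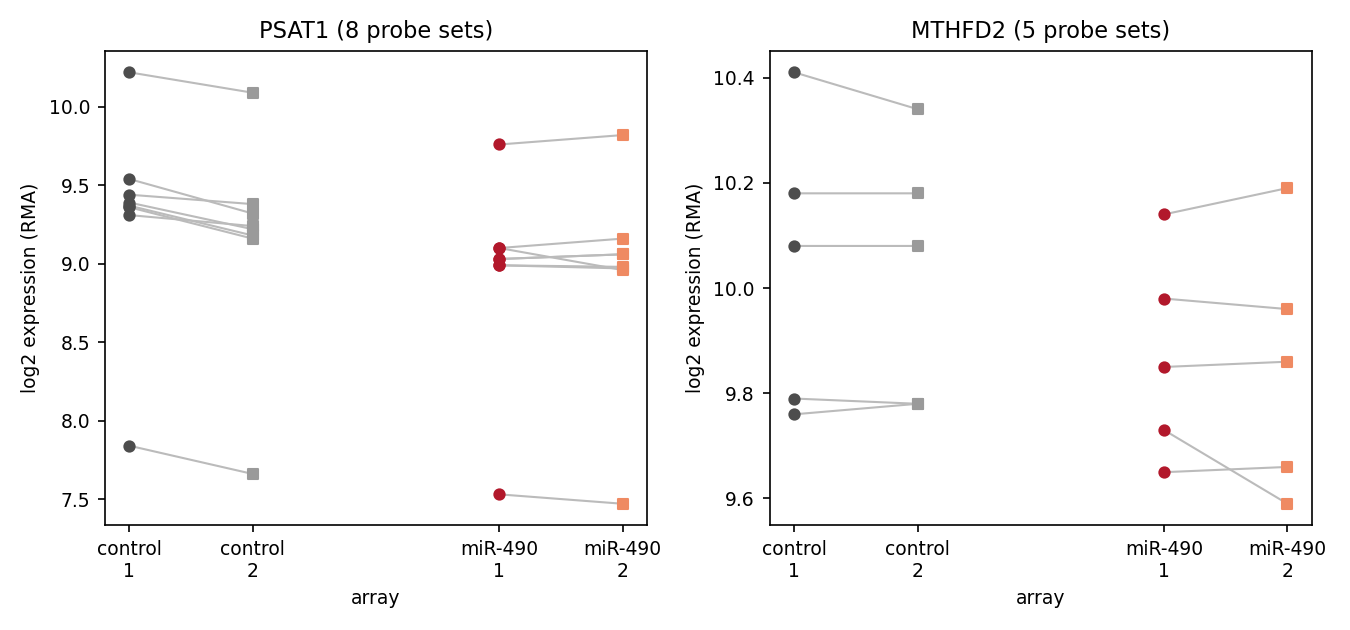
Log2 expression in each of the 4 arrays for the 8 probe sets of PSAT1 and the 5 of MTHFD2; each grey line joins the 2 arrays of a group for 1 probe set. Every PSAT1 set was higher in control array 1 than in control array 2, whereas 4 of the MTHFD2 sets had control values within 0.02 of each other, and in both genes the miR-490 arrays lay lower.

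In the mitochondrial arm the miR-490 mean was the lower one in all 15 probe sets, and in 10 the groups did not overlap. The median log2 difference was -0.11. The 4 genes were not alike in size. In 4 of 5 MTHFD2 sets the difference exceeded the gaps within both groups, whereas SHMT2 depended on 1 array.

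MTHFD2, the mitochondrial dehydrogenase and cyclohydrolase, is scarce in most adult tissues and abundant in proliferating cells. Its brightest set (11745892_a_at) was at 10.41 and 10.34 in controls and 10.14 and 10.19 with miR-490 (log2). The means were 10.375 ± 0.049 and 10.165 ± 0.035 (SD, n = 2), a difference of -0.21 ± 0.069 (standard error), or 0.865 of the control level. The control and miR-490 arrays did not overlap in any of its 5 sets.

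Replicates of MTHFD2 lay close together. A second set (11744003_x_at) read 10.18 in both control arrays and 9.98 and 9.96 with miR-490. Another (11745893_s_at) read 10.08 in both controls against 9.85 and 9.86, a difference of -0.225. The remaining 2 were smaller, at -0.13 and -0.11, and in the last of these the gap between the miR-490 arrays, 9.73 and 9.59, was wider than the difference. Left out 1 at a time, the arrays gave the brightest set -0.245 to -0.175, and all 5 sets were lower in each case. RefSeq lists 7 pseudogenes of MTHFD2, whose contribution was not tested, and 3 of the 5 sets are of the _s_at or _x_at kind.

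SHMT2, which feeds the mitochondrial pathway from serine, had 4 lower probe sets that rest on control array 1. The brightest was at 8.34 and 8.16 in controls and 8.18 in both miR-490 arrays, so control array 2 lay below the miR-490 values. Another (11746438_a_at) was at 8.42 and 8.07 against 8.10 and 8.12, with 0.35 between the controls. The groups overlapped in 3 of the 4 sets, and differences ran from -0.135 to -0.07 with standard errors of 0.076 to 0.13. Without control array 1 only 1 of the 4 sets was lower, with a median of 0.01, and the brightest set went from -0.07 to 0.02.

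MTHFD1L, the mitochondrial formate-releasing enzyme whose promoter held both motifs, had 4 lower sets of uneven size. The brightest was at 8.61 and 8.69 in controls and 8.51 and 8.64 with miR-490, which overlap. The set with the widest difference (11728984_a_at) was at 7.81 and 7.65 against 7.56 and 7.55, a log2 difference of -0.175 ± 0.082 (standard error), without overlap. The others were -0.08 and -0.045. In the brightest set the difference of -0.075 was smaller than the gap of 0.13 between the miR-490 arrays, and with arrays left out in turn it ran from -0.14 to -0.01.

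ALDH1L2, the mitochondrial formyl-folate dehydrogenase, was dim, with both sets under the median level of 5.16. The brighter was at 4.67 and 4.61 in controls and 4.59 and 4.57 with miR-490. The other was at 4.44 and 4.41 against 4.24 and 4.19, a log2 difference of -0.21 ± 0.066 (standard error). Neither overlapped between the groups, and the sets differed in size, -0.06 against -0.21. The brighter had -0.03 without control array 1 and -0.09 without control array 2. RMA compresses differences near the floor, so the values of this gene may be understated.

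The cytosolic enzymes showed no common direction. Of their 6 probe sets 4 were lower and 2 higher, with a median log2 difference of -0.022, and in 4 of 6 the groups overlapped. Left out 1 at a time, the arrays gave 2 of 6 lower without miR-490 array 1 (median 0.028), 3 without control array 2 (-0.015), 4 without miR-490 array 2 (-0.048) and 5 without control array 1 (-0.035).

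SHMT1, the cytosolic serine hydroxymethyltransferase, had a brightest set at 5.57 and 5.66 in controls and 5.60 and 5.67 with miR-490, which overlap. One set was higher without overlap, at 5.43 in both controls against 5.51 and 5.45, and one lower without overlap, at 5.44 and 5.57 against 5.39 and 5.37. Differences over its 5 sets ran from -0.125 to 0.05. In none did the difference exceed the gaps within both groups. Its levels of 4.81 to 5.67 were near the array median, and RefSeq lists the pseudogene SHMT1P1.

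MTHFD1, the cytosolic enzyme with 3 activities, had 1 set at 8.87 and 8.84 in controls and 8.76 and 8.89 with miR-490. The miR-490 arrays lay on both sides of the controls. The log2 difference was -0.03, with a standard error of 0.077 and a 95% interval of -0.23 to 0.17, so a lower level of the size measured for MTHFD2 lies within it. Whether the cytosolic and mitochondrial genes differed from each other was not tested, since the members were chosen with these values known.

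Ordered by the log2 difference of the brightest set, the family ran from PSAT1 at -0.365 over MTHFD2 at -0.21, PHGDH at -0.17, PSPH at -0.09, MTHFD1L at -0.075, SHMT2 at -0.07, ALDH1L2 at -0.06 and MTHFD1 at -0.03 to SHMT1 at 0.02. The standard errors of these sets were 0.067 to 0.086. The step from PSAT1 to MTHFD2 was 0.155, with a combined standard error of the pair of 0.105. It was not tested, and PSAT1 was known beforehand. The step also depends on the probe set: the narrowest PSAT1 set was at -0.215 and the widest MTHFD2 set at -0.225. Every later step, from MTHFD2 to SHMT1, was between 0.005 and 0.08 and smaller than the combined errors of 0.099 to 0.118, so neighbours there do not differ beyond their spread. The plot of difference against level shows where the sets stood among all others.

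**Figure D3:**
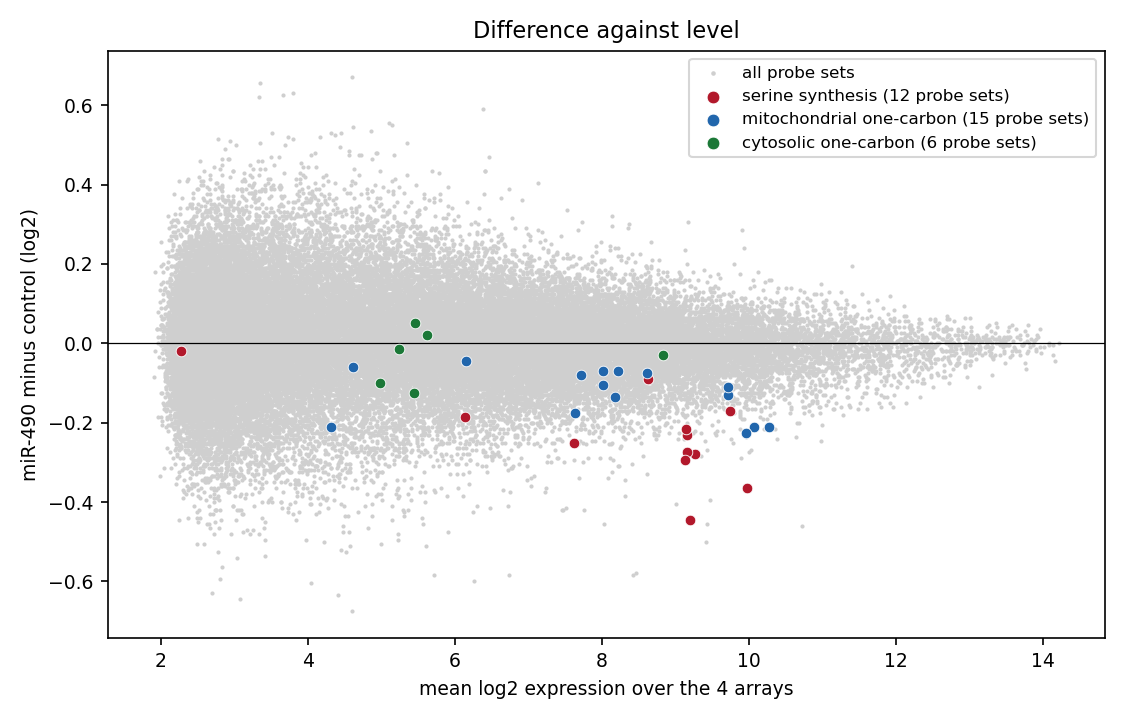
Log2 difference (miR-490 minus control, vertical axis) against the mean log2 level over the 4 arrays (horizontal axis) for all 49293 probe sets in grey and the 33 member sets in colour by role. The scatter narrows at high levels. The serine synthesis sets lie between -0.445 and -0.02, the mitochondrial sets between -0.225 and -0.045 and the cytosolic sets between -0.125 and 0.05.

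Genes around the pathway were read from lists, each gene at its brightest single-gene probe set. Over all 18132 genes so measured 47.3% had a lower mean with miR-490, 16.1% had both miR-490 arrays below both controls and 16.5% both above, the median log2 difference was 0.005, and 0 (0%) had an adjusted p under 0.05 in the limma fit, with 864 (4.77%) at an unadjusted p under 0.05. No gene of any list passed the adjusted threshold in either direction, and the counts below describe means only.

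ATF4, its partners and genes it induces were mostly lower as well. Of 20 genes 17 had lower means, 12 of them without overlap, with a median log2 difference of -0.092. The lists were drawn up knowing earlier results of these arrays, so the direction is not independent evidence. ATF4 itself, which is controlled largely through translation, was at 11.88 and 11.85 in controls and 11.72 and 11.75 with miR-490, a difference of -0.13 ± 0.065 (standard error). SLC7A11, the cystine transporter, was at 8.34 and 8.45 against 8.06 and 8.11, although its other 2 sets gave -0.18 and 0.03.

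ASNS, asparagine synthetase, was at 9.95 and 9.88 in controls and 9.69 and 9.64 with miR-490, and its other 3 sets ran from -0.285 to -0.23. NUPR1, a stress-induced chromatin protein, was at 10.07 and 10.12 against 9.91 and 9.83. Neither overlapped between the groups, nor did ATF4 or SLC7A11. The count of lower genes was 16 to 18 of 20 when arrays were left out in turn, on quantile-normalised values and with array medians set equal.

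Among other regulators reported for these genes, 6 of 10 were lower and 4 higher, with a median of -0.038. MYC, which can induce serine and folate enzymes, was at 8.29 and 8.32 in controls and 8.08 and 8.15 with miR-490, a log2 difference of -0.19 ± 0.068 (standard error). NFE2L2, which encodes NRF2, was at 10.30 and 10.15 against 10.09 in both miR-490 arrays. EIF2AK3, the kinase PERK, was at 7.66 and 7.63 against 7.57 and 7.47. Each of the 3 was without overlap at this brightest set. The other NFE2L2 set gave -0.015, and the other 2 sets of EIF2AK3 gave -0.10 and 0.00. MYCN, a close relative of MYC, lay the other way and had the widest difference of the list: this dim gene was at 4.24 and 4.14 in controls and 4.38 and 4.46 with miR-490, a log2 difference of 0.23 ± 0.076 (standard error).

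Transport and use of serine and glycine showed no uniform direction. Of 10 genes measured out of 12, 7 were lower and 3 higher, with a median of -0.03; without control array 2, 4 of the 10 were lower, with a median of 0.01. SRR, serine racemase, was at 6.44 and 6.59 in controls and 6.26 and 6.37 with miR-490, but its other set gave 0.005. SLC1A5, a carrier of glutamine and other neutral amino acids, was at 9.35 and 9.37 against 9.24 and 9.18. SPTLC1, which joins serine to palmitate in sphingolipid synthesis, was at 10.22 and 10.15 against 10.11 and 10.07. The glycine cleavage system had 4 of 4 genes lower, all with overlap between groups and differences of -0.065 to -0.02. Without control array 2 or without miR-490 array 2 only 1 of the 4 was lower, with medians of 0.018 and 0.023. AMT had a difference of -0.045 and DLD one of -0.02. The other 8 AMT sets had both signs, from -0.33 to 0.27, and the other 6 DLD sets ran from -0.09 to 0.005.

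Folate supply and other one-carbon genes gave 6 lower and 5 higher of 11 measured out of 15, with a median log2 difference of -0.05. Without miR-490 array 1 the median was 0.02, with 5 of 11 lower. GGH, which trims the glutamate tail of folates, was at 9.64 and 9.57 in controls and 9.40 in both miR-490 arrays, a log2 difference of -0.205 ± 0.067 (standard error) from its only set. FPGS, which adds that tail, was at 7.67 and 7.59 against 7.48 and 7.53, but its other 3 sets ran from -0.105 to 0.355. MTHFD2L, the close relative of MTHFD2, was at 7.36 and 7.42 against 7.35 and 7.17, and its other sets had both signs.

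Of the methionine cycle, transsulfuration and glutathione genes 7 of 10 were lower, with a median log2 difference of -0.048. GCLC and GCLM, the subunits of the first glutathione enzyme, had differences of -0.115 and -0.12, each with 1 other set of the opposite sign. MAT2A, which makes S-adenosylmethionine, had -0.12, with all 5 other sets lower (-0.16 to -0.015).

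The users of the pathway's product and its source of carbon lay close to 0. Purine synthesis genes had 7 lower, 2 higher and 2 equal of 11 measured, with differences of -0.055 to 0.025 and no gene without overlap. So near 0 the count turns with the scaling: 1 of 11 was lower on quantile-normalised values (median 0.005) and 10 of 11 with array medians set equal (median -0.015). PRPS1, which makes the ribose donor, had a log2 difference of -0.055, IMPDH2, of guanine nucleotide synthesis, 0.025 and PAICS -0.02. Glycolysis genes around 3-phosphoglycerate gave 4 lower and 4 higher of 8, with a median of 0.00, and 1 of 8 was lower without control array 1, 2 without miR-490 array 1 or on quantile-normalised values, and 5 with array medians set equal. ENO1, enolase, had a difference of 0.07, HK2, hexokinase, 0.065 and LDHA, lactate dehydrogenase, 0.03.

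**Figure D4:**
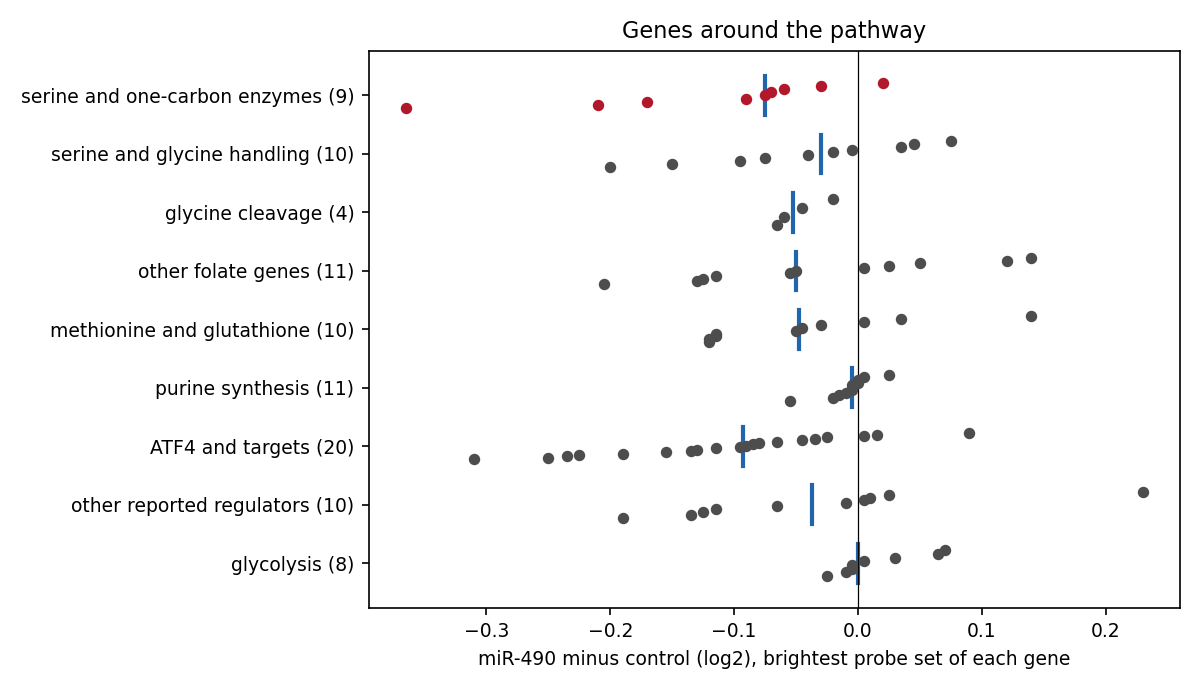
Log2 difference (miR-490 minus control) of each gene at its brightest probe set, for the 9 members (red) and 8 lists of related genes (grey), with the number of genes measured in brackets and a blue bar at each median. The members, with a median of -0.075, and the ATF4 list, at -0.092, lie further to the left than purine synthesis (-0.005) and glycolysis (0.00).

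The genes whose values over the 4 arrays were most like those of PSAT1 were sought among 10203 other genes above the median level, by the Euclidean distance between log2 values centred on each probe set's mean. The 5 nearest were MMP7 (distance 0.037), RFTN1 (0.054), CCL5 (0.073), MMP3 (0.074) and IL6 (0.075). IL6, for example, was at 9.26 and 9.17 in controls and 8.82 and 8.80 with miR-490. For MTHFD2 the 5 nearest were AHR (0.014), LAMP2 (0.014), IL1RN (0.024), AEBP2 (0.026) and FABP5 (0.026). AHR was at 9.80 and 9.72 in controls and 9.51 and 9.57 with miR-490. Over 4 arrays a profile holds little more than the difference between groups and the gaps within them, so many genes can lie this near.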

How the data were processed

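Per the submitters' processing notes, RMA produced the deposited log2 values; which software ran it, and how, is not given in the sources used here. RMA hides a shift of most transcripts in 1 direction and compresses low signals. Groups and replicate numbers came from the sample titles. The platform annotation gave 44988 of the 49293 probe sets 1 gene symbol, 1832 several and 2473 none; 44961 took current symbols from RefSeq.

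All probe sets were fitted with limma 3.58.1 in R 4.3.3 (lmFit, eBayes with 2 residual and 2.73 prior degrees of freedom, neither trend nor block). Tests were two-sided, adjusted by Benjamini-Hochberg over all 49293, with a threshold of 0.05. The fit was tested on simulated data. With 2 arrays a group the median standard error was 0.084. Scan dates were not used here, and batches were therefore not tested.

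Members, lists and motifs were chosen with earlier results of these data known. Named genes were every member, from each list up to 3 genes with the smallest p above the median level, ATF4, MYC and NFE2L2, 4 markers and the 5 genes nearest in profile to PSAT1 and to MTHFD2. CD68, SNAP25, NES, SOX2, MYCN and single probe sets of members were named after their values were seen. Alternatives were quantile normalisation, equal array medians, a trend of variance with intensity (also with a robust prior), only probe sets above the median level, 1 probe set or the mean per gene, an ordinary test, each array left out and the replicate number as a block. Figures were drawn with matplotlib 3.10.9.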

Additional observations from a re-analysis of the deposited data

How the results depend on the processing

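The count of probe sets past the adjusted threshold was 0 in all 13 alternatives run, with smallest adjusted p values of 0.335 (limma with a trend and a robust prior) to 0.934, and 1679 to 3048 of 49293 at an unadjusted p under 0.05 in the fits of all probe sets. Members with lower means numbered 31 of 33 as reported, on quantile-normalised values and with array medians set equal, and 27 of 29 above the median level. The trend, the robust prior and the ordinary test leave the means as they are, so they cannot change this count. By construction fewer values enter with 1 probe set per gene, which gave 8 of 9 genes, and with probe sets averaged per gene, which gave 9 of 9. Leaving out each array in turn, on the assumption that the single array remaining in a group varies as the other pair does, gave counts of 28 to 30 of 33. Of 116 alternative values of the members' brightest sets, 5 changed sign. These were SHMT1 with the mean of its sets (-0.034), without control replicate 1 (-0.025) and without miR-490 replicate 2 (-0.015). The others were SHMT2 without control replicate 1 (0.02) and MTHFD1 without miR-490 replicate 1 (0.035). Many of the 116 could not change. The trend, robust prior, ordinary test, block and the 2 choices of probe sets (above the median level, 1 per gene) leave the difference of a brightest set as it is. The labels do not say that same-numbered arrays were prepared together, and their deviations correlated at -0.084 across probe sets. With the replicate number as a block, 0 probe sets passed and 1936 had an unadjusted p under 0.05 (limma), so the block changed no call. With each replicate number once in each group, the block cannot change a difference of means. Its count of 31 of 33 lower members was therefore fixed beforehand. Dim sets, such as those of ALDH1L2 and the third of PSPH, lie where differences are compressed.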
